A study of Mus musculus with 23 samples.

Results

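The pyruvate dehydrogenase complex and the enzymes that switch it on and off were followed as 10 genes in the skeletal muscle and fat of mice bearing pancreatic tumors. The genes were taken by symbol from the count tables: the kinases Pdk1, Pdk2, Pdk3 and Pdk4, the phosphatases Pdp1 and Pdp2, and the complex subunits Pdha1, Pdhb, Dlat and Pdhx. All 10 were present among the 12831 genes of the quadriceps table and the 16962 genes of the epididymal fat table, and none was removed by the filter on low counts. The complex sits in the mitochondrial matrix and turns pyruvate into acetyl-CoA, which commits carbon from glucose to oxidation. The Pdk enzymes phosphorylate its E1 component and shut it off, and the Pdp phosphatases remove the phosphate and turn it back on. In muscle, Pdk4 is best known as the kinase that is raised by fasting and by fatty acids, when the tissue spares glucose.

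The mice were male, C57BL/6J in the study's methods and C57BL/6 in the labels, and were operated on at 8 weeks of age. They had sham surgery (no tumor), or an injection of tumor cells into the pancreas. KPC cells were a line from a mouse pancreatic tumor and had been passed through the editing procedure without an Il6 guide. KPC IL6KO cells were a single clone of the same line with Il6 disrupted by CRISPR/Cas9, so each tumor arm was 1 cell clone and the mice themselves kept their Il6. All mice were killed once a group had wasted past a set limit, and the question asked was which changes in host tissue went with IL-6 made by the tumor cells. The study also found larger tumors with KPC than with KPC IL6KO cells, and no correlation of tumor mass with muscle or fat pad mass. The part of tumor mass in the differences between the tumor arms was not tested here. Quadriceps RNA came from 3 mice without tumors, 4 with KPC and 4 with KPC IL6KO tumors, and epididymal fat RNA from 4 mice of each kind. The muscle and fat libraries were prepared and sequenced separately. They share no library number, and the labels do not say whether any mouse gave both tissues. Libraries are named here by group and number, with 1 to 4 for muscle and 5 to 8 for fat.

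Levels are given as CPM, the read count of a gene scaled to a common library size with TMM factors, and are compared within a tissue. Library totals ran from 19259763 to 74907810 counts in muscle and from 26306377 to 56308545 in fat, so a count of 3 corresponded to 0.0462 to 0.154 CPM in muscle and 0.0474 to 0.123 CPM in fat. A gene was called when the Benjamini-Hochberg false discovery rate over all genes of the tissue (FDR, from edgeR's quasi-likelihood test) was at most 0.05 and the fold change was at least 1.5. The spread between mice of a group, as the coefficient of variation from the common dispersion, was 22.7% in muscle and 63.5% in fat. The muscle libraries carried muscle fibre transcripts at high level, with a summed CPM over 6 markers of 152009 to 192378 without tumors, 111606 to 133274 with KPC tumors and 173502 to 192126 with KPC IL6KO tumors. None of 6 epididymis markers was in the muscle table. The fat libraries carried adipocyte transcripts (992.6 to 18079 CPM over 6 markers), but also epididymis transcripts at 738.1 to 87957 CPM, which were above the adipocyte sum in every fat library but no tumor 6 and KPC IL6KO 5. Fewer cells of a type and less RNA per cell cannot be told apart in such bulk samples.

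The promoters of 3 genes that changed in muscle are shown first. They were Pdk4, whose level rose most among the 10 genes, Dlat, the complex subunit called lower, and Pdp2, the phosphatase that rose. Each run is the RefSeq window of 300 bases on build GRCm38.p6, from 250 bases before the annotated start to 50 after, 5′ to 3′ on the strand of the gene. The Pdk4 window is chr6:5496229-5496528 (minus strand), the Dlat window chr9:50659731-50660030 (minus strand) and the Pdp2 window chr8:104591222-104591521 (plus strand). Capitals mark matches on either strand to the CCAAT box (CCAAT) or the GC box (GGGCGG).
Pdk4: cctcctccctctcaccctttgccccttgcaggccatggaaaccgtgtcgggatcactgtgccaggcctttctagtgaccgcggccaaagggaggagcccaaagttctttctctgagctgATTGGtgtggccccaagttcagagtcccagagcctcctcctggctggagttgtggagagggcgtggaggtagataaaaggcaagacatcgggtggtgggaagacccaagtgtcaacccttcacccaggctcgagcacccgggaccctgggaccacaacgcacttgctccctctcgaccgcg
Dlat: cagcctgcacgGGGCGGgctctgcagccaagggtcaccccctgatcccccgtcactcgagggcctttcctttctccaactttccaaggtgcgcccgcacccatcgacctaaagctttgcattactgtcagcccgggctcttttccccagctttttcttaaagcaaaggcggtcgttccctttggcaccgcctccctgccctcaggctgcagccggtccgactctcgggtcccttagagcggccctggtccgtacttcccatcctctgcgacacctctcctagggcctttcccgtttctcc
Pdp2: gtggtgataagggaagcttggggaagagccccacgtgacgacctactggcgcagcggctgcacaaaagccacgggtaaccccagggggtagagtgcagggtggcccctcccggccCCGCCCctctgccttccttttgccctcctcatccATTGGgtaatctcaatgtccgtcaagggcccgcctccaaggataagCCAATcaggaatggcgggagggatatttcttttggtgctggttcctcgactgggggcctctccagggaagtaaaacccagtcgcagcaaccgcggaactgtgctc
The Pdk4 window held 1 CCAAT box, at position -131 from the start, and no GC box. The Dlat window held 1 GC box, at -239, and no CCAAT box, and the Pdp2 window held 2 CCAAT boxes and 1 GC box, the latter at -135. Of 32851 mouse promoter windows of this length, 37.4% held the CCAAT box and 35.7% the GC box. RefSeq windows were found for 9 of the 10 genes, all but Pdp1, and no site outside them was searched. Most motifs named next are rare enough that 9 windows would often hold none, so their absence says little. None of these windows held the FoxO core (GTAAACA, in 3.65% of all windows), the STAT motif (TTCNNNGAA, 8.3%), the C/EBP motif (TTNCGCAA, 0.798%), the PPAR direct repeat (0.0396%), the ERR motif (TCAAGGTCA, 0.423%), the glucocorticoid receptor motif (0.971%) or the TATA box (TATAAA, 13.6%), each searched on both strands. The Pdk4 window had a GC content of 60.7% and 12 CpG, the Dlat window 62% and 18, and the Pdp2 window 60.7% and 14, against medians of 52.7% and 7 over all windows.

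In muscle of mice without tumors, 3 transcripts led the set when the level was divided by exon length. Pdk2, the kinase found in most tissues, was at 173.7 ± 17.5 CPM per kb (SD, n = 3). Pdha1, the E1 alpha subunit that carries the phosphorylated serines, was at 167.0 ± 11.8 CPM per kb, and Pdk4 was at 126.2 ± 52.2 CPM per kb. The ranges of these 3 overlapped. Below them came, with no overlap between neighbours, Pdhb (E1 beta), Dlat (the E2 acetyltransferase), Pdhx (the E3-binding protein), Pdp1, Pdk1, Pdp2 and Pdk3, from 61.4 down to 0.304 CPM per kb. By coding length in place of exon length, Pdk2 and Pdha1 changed places, as did Pdp1 and Pdk1.

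**Figure D1:**
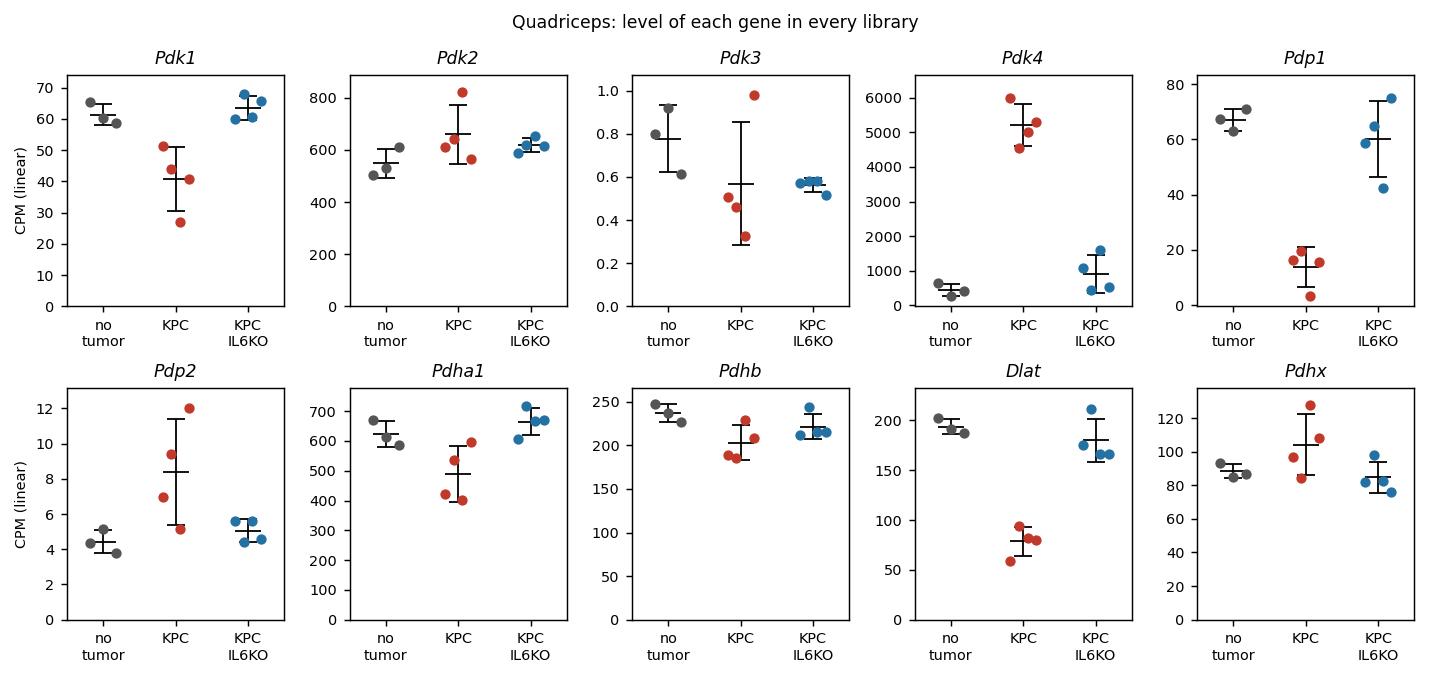
Level of the 10 genes in each quadriceps library (CPM on a linear axis), with 1 panel per gene, 1 point per mouse, and a bar for the mean and SD of no tumor (n = 3), KPC (n = 4) and KPC IL6KO (n = 4). The 4 KPC points for Pdk4 sit between 4554 and 6002 CPM, above every other library, and those for Pdp1 and Dlat sit below every other library.

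Mice with KPC tumors had much more Pdk4 transcript in quadriceps than mice without tumors. Pdk4 (chromosome 6, 5483351 to 5496309, minus strand, GRCm38) was at 637.2, 273.0 and 418.8 CPM in no tumor 1 to 3. It was at 6002, 4554, 5015 and 5304 CPM in KPC 1 to 4. The lowest KPC library was thus far above the highest no tumor library. The group means were 443.0 ± 183 and 5219 ± 607 CPM (SD), an 11.8-fold rise with a 95% confidence interval of 5.82 to 23.9 (log2 difference 3.56, SE 0.47, edgeR FDR 4.89e-05). Only 0.662% of all muscle genes had a larger log2 difference in this comparison.

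The other 3 kinases did not follow Pdk4. Pdk1 (chromosome 2, 71873224 to 71903858), a kinase known for its induction under low oxygen, was at 65.4, 60.2 and 58.7 CPM in no tumor and at 51.4, 44.1, 26.95 and 40.9 CPM in KPC mice. Every KPC library was below every no tumor library, and KPC 3 was the lowest. The fall was 1.503-fold (log2 difference -0.59, SE 0.17, edgeR FDR 0.00961), which only just met the fold threshold. Without KPC 3 it was -0.43 and without no tumor 1 it was -0.51, under the threshold, as it also was with DESeq2 (-0.55), with RLE scaling (-0.55) and with only the 2 groups in the fit (-0.56).

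Pdk2 (chromosome 11, 95026258 to 95041354) was at 506.0, 530.7 and 611.7 CPM in no tumor and at 612.3, 641.5, 822.7 and 565.6 CPM in KPC mice. The groups overlapped, and the log2 difference of 0.27 (95% interval -0.03 to 0.56) did not pass (edgeR FDR 0.0988). Pdk3 (chromosome X, 93764607 to 93832201) was close to absent, with 0.615 to 0.921 CPM in no tumor and 0.327 to 0.979 CPM in KPC libraries, and did not pass (log2 difference -0.48, edgeR FDR 0.233). Its highest KPC value was in KPC 4, and without that library Pdk3 was called lower (log2 difference -0.87, edgeR FDR 0.0124).

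The makeup of the kinase transcripts differed between these groups. Taken per kb of exon, Pdk4 made up 30.7% to 51.8% of the summed Pdk1 to Pdk4 level in no tumor libraries and 84.4% to 89.5% in KPC libraries. Pdk2 made up 57.4% ± 10.6 (SD, n = 3) of the sum in no tumor and 12.4% ± 2.49 (n = 4) in KPC mice, although its own level did not fall. The sum of the 4 kinases was 308.1 ± 49.5 CPM per kb in no tumor and 1701 ± 165 CPM per kb in KPC mice. By coding length the mean Pdk4 share was 40.8% in no tumor and 88.0% in KPC mice.

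**Figure D2:**
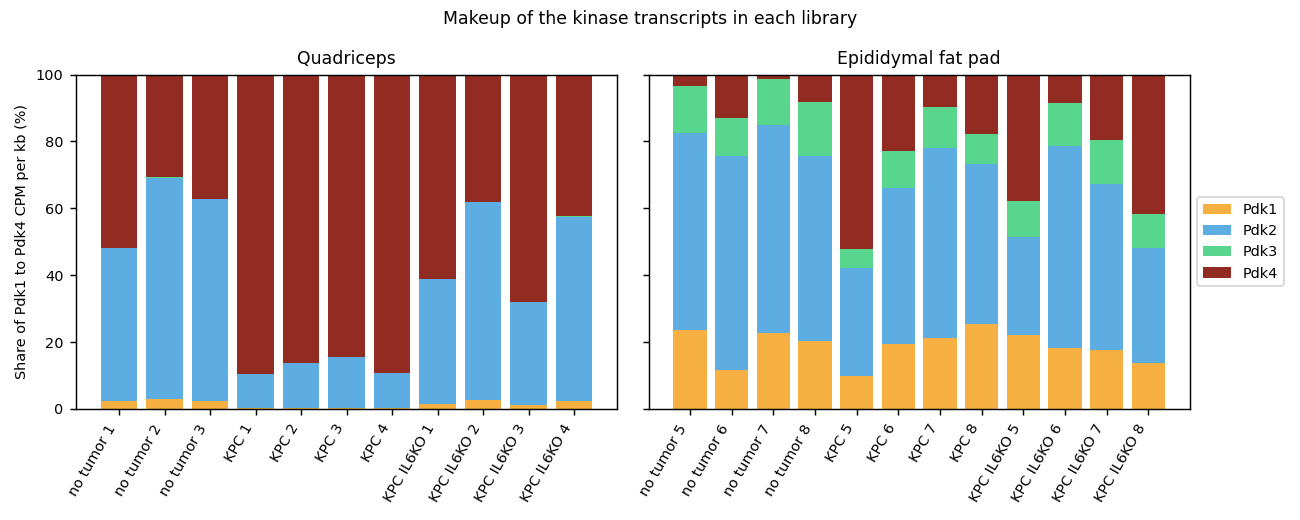
Share of each kinase in the summed CPM per kb of Pdk1 to Pdk4 (percent, stacked bars), with 1 bar per library for quadriceps (left) and epididymal fat (right). Pdk4 fills 84.4% to 89.5% of the bar in the 4 KPC muscle libraries, and in fat it reaches 52.3% in KPC 5 and 41.7% in KPC IL6KO 8.

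The 2 phosphatases moved in opposite directions in muscle of KPC mice. Pdp1 (chromosome 4, 11958184 to 11966452), the calcium-stimulated form that predominates in muscle, was at 67.5, 63.1 and 71.0 CPM in no tumor mice. It was at 16.4, 19.6, 3.19 and 15.8 CPM in KPC 1 to 4. The groups were far apart, with KPC 3 again the lowest library, and the fall was 4.88-fold (log2 difference -2.29, SE 0.43, edgeR FDR 0.000641). Without KPC 3 the log2 difference was -1.96.

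Pdp2 (chromosome 8, 104591451 to 104599026), the form that is not stimulated by calcium, was at 4.38, 5.13 and 3.79 CPM in no tumor and at 6.99, 9.41, 5.12 and 12.01 CPM in KPC mice. KPC 3 fell just inside the no tumor range, so the groups overlapped. The rise of 1.88-fold (log2 difference 0.91, SE 0.26) was called at an edgeR FDR of 0.00831. Its share of the summed Pdp1 and Pdp2 level per kb was 4.06% to 6.06% in no tumor and 25.3% to 56.0% in KPC libraries, and KPC 3 was the muscle library in which it exceeded Pdp1.

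With more Pdk4 and less Pdp1, the ratio of summed kinase to summed phosphatase transcript per kb differed widely. It was 17.0 to 22.2 in the 3 no tumor libraries and 250.6 to 1052 in the 4 KPC libraries. This is a ratio of transcripts and says nothing of protein amounts or of phosphorylation.

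Among the subunits of the complex, Dlat was the one called lower. Dlat (chromosome 9, 50634633 to 50659780), which encodes the lipoyl-bearing E2 core, was at 202.3, 191.6 and 187.8 CPM in no tumor and at 59.0, 93.7, 82.1 and 79.9 CPM in KPC mice. No library of one group came near the other, and the fall was 2.46-fold (log2 difference -1.30, SE 0.15, edgeR FDR 1.77e-05). It stayed between -1.40 and -1.19 when each library was left out in turn.

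Pdha1 (chromosome X, 160122209 to 160138413) was at 671.6, 614.1 and 585.0 CPM in no tumor and at 423.3, 536.5, 400.5 and 597.4 CPM in KPC mice. The log2 difference of -0.35 had an edgeR FDR of 0.0467 but did not reach the fold threshold, and KPC 4 lay within the no tumor range. Pdha1 shares 603 exon bases with Map3k15 on the opposite strand, so its counts depend on strand being kept. The labels and the study's methods both call the libraries strand-specific but name different library kits, on which levels per kb of exon also depend. Pdhb (chromosome 14, 8165996 to 8173025) ranged from 227.2 to 247.7 CPM in no tumor and from 185.3 to 229.5 CPM in KPC libraries (log2 difference -0.22, edgeR FDR 0.0753). A pseudogene, Gm6123, matches 6.86% of the 75-base stretches of Pdhb. Pdhx (chromosome 2, 103021075 to 103073513), the protein that anchors the E3 enzyme to the core, ranged from 85.1 to 93.0 CPM in no tumor and from 84.3 to 127.6 CPM in KPC libraries (log2 difference 0.24, edgeR FDR 0.151). Of the 4 subunits measured, Dlat alone was called. The ratio of Pdha1 to Dlat per kb was 4.08 to 4.34 in no tumor libraries and 6.38 to 9.79 in KPC libraries.

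In all, 5 of the 10 genes were called in KPC against no tumor muscle, 2 up and 3 down. Of all 12831 genes, 55.7% were called, 26.7% up and 29% down, so a share of 5 in 10 was near that of muscle genes at large. The ranges of the groups did not overlap for 4 of the 10 genes, against 65.3% of all genes. An FDR of at most 0.05 at any fold change was found for 6 of the 10, against 67.6% of all genes, and an unadjusted p under 0.05 for 6, against 70.3%. The median log2 difference was -0.29 over the 10 genes and -0.03 over all genes. Markers of other cells moved in the same comparison. All 3 neutrophil markers in the table were called up, with a summed level of 0.359 to 0.658 CPM in no tumor and 3.76 to 20.3 CPM in KPC libraries. S100a9 was at 0 in at least 1 no tumor library, and the other 2 were above 0 in every library. Of the 6 muscle fibre markers, 3 were called down. All 6 adipocyte markers had negative differences (median log2 difference -1.42) and 1 was called down, 1 of 5 macrophage markers was called up and 2 down, and the red cell marker in the table, Alas2, was called up. The part of such shifts in the changes of the 10 genes was not tested.

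Mice with KPC IL6KO tumors were close to mice without tumors for most of these genes. No gene of the 10 was called in KPC IL6KO against no tumor muscle, and no gene of the whole table was (0% called by edgeR's quasi-likelihood test). At an unadjusted p under 0.05 the count was 1 of the 10 genes and 6.91% of all genes, and DESeq2 called 30 genes up and 66 down, none of them among the 10. The group ranges did not overlap for 1 of the 10 genes, Pdk3, against 15.5% of all genes. The 1 gene with an unadjusted p under 0.05 was Pdk4, at 1067, 442.5, 1610 and 524.0 CPM in KPC IL6KO 1 to 4. Libraries 1 and 3 were above the no tumor range and libraries 2 and 4 within it. The mean was 910.9 ± 542 CPM (SD, n = 4), and the log2 difference of 1.04 (95% interval 0.13 to 1.95) had an unadjusted p of 0.0280 and an FDR of 0.595 in edgeR's quasi-likelihood test. It ranged from 0.61 to 1.39 when each library was left out.

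Dlat was at 175.1, 211.9, 166.7 and 166.8 CPM in KPC IL6KO muscle, with a log2 difference from no tumor of -0.11 (95% interval -0.43 to 0.22). Pdp1 was at 58.7, 64.7, 42.3 and 75.1 CPM, with a log2 difference of -0.16 (-1.09 to 0.77). The interval for Pdp1 still allowed a change of over 2-fold, and that for Dlat did not allow a change of 1.5-fold. KPC IL6KO 3, which had the highest Pdk4 of its group, also had the lowest Pdp1. Pdk4 made up 38.1% to 68.1% of the kinase level per kb in this group, and the ratio of kinase to phosphatase transcript was 20.1 to 65.0.

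Set against each other, the tumor arms differed in 5 of the 10 genes, with Pdk4 and Pdp2 higher and Pdk1, Pdp1 and Dlat lower in KPC mice. These comparisons share the KPC libraries, so their values are given side by side only. Pdk4 was 5.73-fold higher in KPC than in KPC IL6KO muscle (95% interval 3.15 to 10.4, edgeR FDR 0.000164). Pdp1 was 4.38-fold lower (log2 difference -2.13, edgeR FDR 0.000715) and Dlat 2.29-fold lower (-1.19, edgeR FDR 1.97e-05). Pdk1 was at 59.8 to 67.96 CPM in KPC IL6KO libraries and was 1.56-fold lower in KPC (-0.64, edgeR FDR 0.00401). Pdp2 was at 4.38 to 5.61 CPM in KPC IL6KO libraries and was 1.66-fold higher in KPC (0.73, edgeR FDR 0.0149). The call for Pdk1 was lost without KPC 3 (-0.48) and that for Pdp2 without KPC 4 (0.51), both for the fold threshold.

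Of the genes not called, Pdha1 had a log2 difference of -0.44 (edgeR FDR 0.0111) and no overlap between the tumor arms. The intervals for Pdk2 (-0.18 to 0.37) and Pdhb (-0.34 to 0.09) did not include a change of 1.5-fold. Of all genes, 53.6% were called between the tumor arms, 26.4% up and 27.3% down, and the groups did not overlap for 62% of all genes and 5 of the 10. An unadjusted p under 0.05 was found for 7 of the 10 and 70.9% of all genes, and an FDR of at most 0.05 at any fold change for 6 of the 10 and 68% of all genes.

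**Figure D3:**
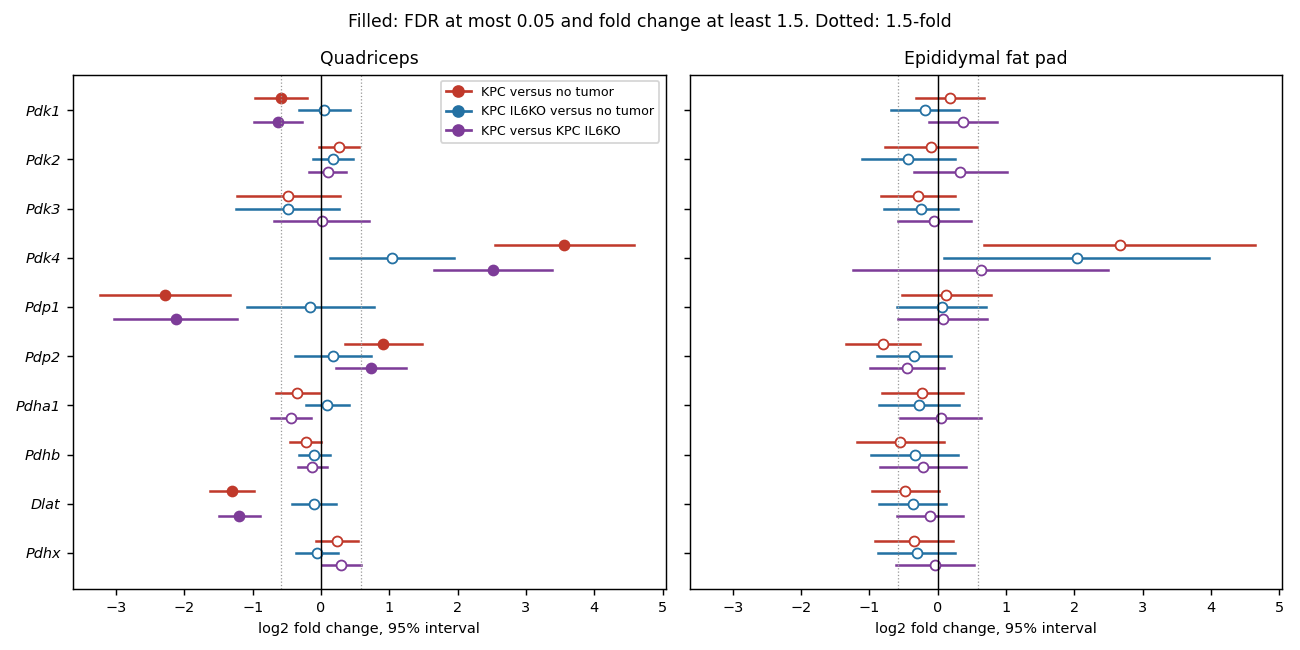
Log2 fold change of each gene with its 95% interval in quadriceps (left) and epididymal fat (right) for the 3 comparisons, on 1 shared axis, with filled points where the FDR was at most 0.05 and the fold change at least 1.5, and dotted lines at 1.5-fold. In muscle, 5 genes are filled in both comparisons with KPC and none in KPC IL6KO against no tumor; in fat no point is filled.

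Genes around the complex were read from 4 lists. Their counts stand against 26.7% of all muscle genes called up and 29% called down in KPC against no tumor, and 26.4% and 27.3% in KPC against KPC IL6KO. The first held 8 genes for pyruvate supply and its other fates. In KPC against no tumor muscle, 1 was called up and 1 down, with a median log2 difference of -0.48. Slc16a1, which carries lactate and pyruvate across the cell membrane, ranged from 21.6 to 32.4 CPM in no tumor and from 51.5 to 90.9 CPM in KPC libraries (log2 difference 1.16, edgeR FDR 0.000494). Ldha, the muscle lactate dehydrogenase subunit, was at 3002 to 3569 and 814.6 to 1368 CPM (log2 difference -1.52, edgeR FDR 1.53e-05). Pkm, the pyruvate kinase gene and the one with the highest level in the list, had means of 3845 and 2702 CPM and missed the fold threshold (-0.51). Against KPC IL6KO, Slc16a1 was called up (1.19) and Ldha (-1.49), Slc16a3 (-0.68) and Pkm (-0.60) were called down.

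The second list held 5 genes for the other parts of the complex, its phosphatase and its lipoyl groups. None was called in KPC against no tumor muscle. Dld, the shared E3 enzyme and the highest of the list, had a log2 difference of -0.13 with means of 184.9 ± 12.8 CPM in no tumor and 168.5 ± 15.4 CPM in KPC mice. Against KPC IL6KO only Lipt2, an enzyme of lipoyl synthesis at 2.48 to 4.11 CPM in KPC mice, was called (down, -0.59).

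The third list held 7 genes of the sister complexes that act on 2-oxoglutarate and on branched-chain keto acids. In KPC against no tumor muscle 1 was called up and 1 down. Bckdha, the E1 alpha subunit of the branched-chain complex, ranged from 188.0 to 227.3 CPM in no tumor and from 393.5 to 518.6 CPM in KPC libraries (log2 difference 1.07, edgeR FDR 4.28e-05). Ppm1k, the phosphatase that activates that complex, was at 10.5 to 15.1 and 2.96 to 6.92 CPM (-1.48, edgeR FDR 0.000977). Pdp1 was also lower in this comparison, while Pdp2, the other phosphatase of the pyruvate dehydrogenase complex, was higher (0.91). Bckdk, the kinase of the branched-chain complex, was lower too but missed the fold threshold (-0.47, edgeR FDR 0.00617). Ogdh, the highest of the list, did not reach the fold threshold (0.32). Against KPC IL6KO, Bckdha (0.92) and Dbt (0.75) were called up and Bckdk (-0.61) and Ppm1k (-1.22) down.

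The fourth list held 11 factors known to act on Pdk genes. In KPC against no tumor muscle 4 were called up and 1 down, 5 of 11 where 55.7% of all genes were called, with a median log2 difference of 0.56 against -0.03 over all genes. Rxra, the highest of the list and the partner of the PPAR receptors, missed the fold threshold (0.56). The called genes of this list are named after their values were seen. Foxo1, a factor of the fasting response, ranged from 14.3 to 35.04 CPM in no tumor and from 128.1 to 232.2 CPM in KPC libraries (log2 difference 2.82, edgeR FDR 1.81e-05). Foxo3 (2.07), Cebpb (1.43) and Ppard (0.69) were the others called up. Esrra, an orphan nuclear receptor of mitochondrial genes, was the one called down, from 134.1 ± 8.62 to 41.8 ± 12.9 CPM (-1.68, edgeR FDR 3.76e-05). Against KPC IL6KO, Foxo1 (3.21), Cebpb (2.07), Foxo3 (1.91) and Ppara (0.99) were called up and Esrra (-1.61) down. Ppara was not called in KPC against no tumor muscle (log2 difference 0.22, edgeR FDR 0.541). With KPC tumors it ranged from 29.0 to 73.9 CPM, which took in its whole no tumor range. In KPC IL6KO against no tumor muscle no gene of the 4 lists was called. Foxo1 was then at 15.1 to 23.4 CPM, within its no tumor range of 14.3 to 35.04 CPM. Cebpb at 16.9 to 26.5 CPM lay below its no tumor range of 29.6 to 37.2 CPM. Ppara (17.8 to 27.7 against 32.6 to 51.9 CPM) and Pparg (2.31 to 4.36 against 4.71 to 15.2 CPM) also lay below theirs. Ppard (42.03 to 45.2 against 36.5 to 39.7 CPM) lay above its range, and the other factors overlapped. Of all muscle genes, 15.5% did not overlap in this comparison.

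**Figure D4:**
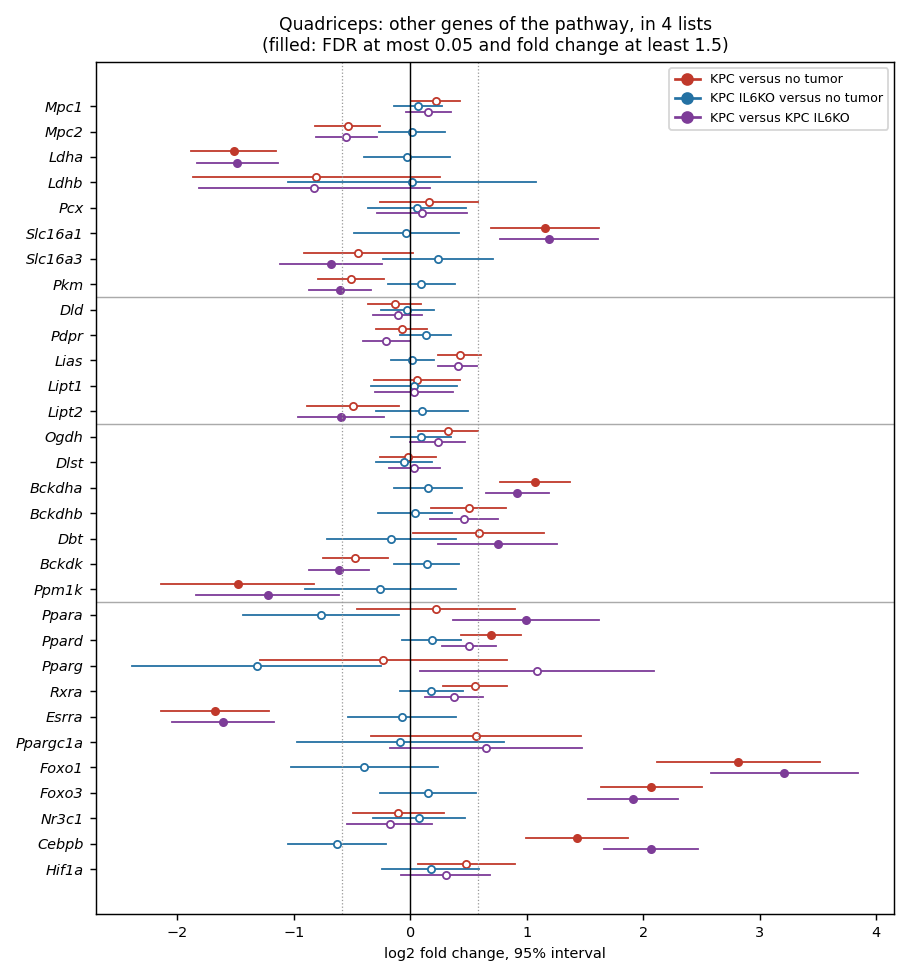
Log2 fold change with its 95% interval in quadriceps for the 31 genes of the 4 lists (from top: pyruvate supply, other parts of the complex, sister complexes, factors that act on Pdk genes), in 3 comparisons, filled where called. Foxo1 lies farthest to the right in both comparisons with KPC, Ldha and Esrra are among those farthest to the left, and no point of KPC IL6KO against no tumor is filled.

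The genes with a pattern across the 11 muscle libraries most like that of Pdk4 were Acot2, Tmem140, Arntl, Zbtb16 and Ctla2a. Likeness was the root mean square difference in log2 CPM, each gene centred on its own mean, over 10520 genes. It was 0.381 for Acot2, a mitochondrial acyl-CoA thioesterase, 0.423 for Tmem140 and 0.518 for Arntl, a core clock gene, against a median of 1.62 over all genes ranked. For Pdk2, which varied little, the nearest genes were Ube2m, Znrd1as, Fam96b, Tma7 and Atp6v1f, at 0.0528 to 0.0792 against a median of 0.428.

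In epididymal fat, the group ranges overlapped for all of the 10 genes except Pdp2 in KPC against no tumor. Pdk2 was the leading kinase per kb in every no tumor library, and Pdk4 exceeded it in KPC 5 (52.3% of the kinase sum) and in KPC IL6KO 5 (37.8%) and 8 (41.7%). In no tumor mice Pdk2 made up 60.1% ± 3.84 (SD, n = 4) of the kinase level per kb of exon. Pdk1 made up 19.5% ± 5.42, Pdk3 13.8% ± 1.91 and Pdk4 6.51% ± 5.15. Pdk1 has 7779 exon bases but 1302 coding bases, so these shares depend on the length used. Pdk3, barely detected in muscle, was at 22.2 to 32.1 CPM. Among all 10 genes Pdha1 was highest per kb (75.7 ± 32.8 CPM per kb), above Pdk2 (46.0 ± 3.32) with no overlap, and from Pdk2 down to Pdp2 each gene overlapped the next. The 2 phosphatases were close to each other, at 4.27 ± 1.65 CPM per kb for Pdp1 and 3.57 ± 0.889 for Pdp2. By coding length in place of exon length, Pdhb ranked above Pdk2, Pdk1 above Dlat and Pdp2 above Pdp1. Muscle and fat were prepared separately, and these levels are set side by side without a test.

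None of the 10 genes was called in fat in any of the 3 comparisons, and none of the 16962 genes was either (0% by edgeR's quasi-likelihood test). At an unadjusted p under 0.05, 2 of the 10 genes were found in KPC against no tumor (12.2% of all genes), 1 in KPC IL6KO against no tumor (9.34%) and 0 in KPC against KPC IL6KO (6.26%). The smallest FDR of any gene was 0.0704, 0.235 and 0.535 in these comparisons. DESeq2 called 364 genes up and 221 down in KPC against no tumor fat, 282 up and 4 down in KPC IL6KO against no tumor, and 19 up and 106 down between the tumor arms. The group ranges did not overlap for 1 of the 10 genes in KPC against no tumor (10.9% of all genes), and for 0 in the other comparisons (2.01% and 4.33%).

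Pdk4 had the largest difference in fat. It was at 8.92, 34.2, 3.79 and 22.7 CPM in no tumor 5 to 8, at 299.9, 68.004, 24.4 and 49.8 CPM in KPC 5 to 8, and at 59.4, 23.1, 60.3 and 142.4 CPM in KPC IL6KO 5 to 8. Each tumor group overlapped the no tumor range in 1 library, and KPC 5 stood well above the rest. The log2 difference was 2.67 for KPC (95% interval 0.68 to 4.65, unadjusted p 0.0129, FDR 0.298) and 2.03 for KPC IL6KO (0.10 to 3.97, p 0.0412, FDR 0.519), both against no tumor by edgeR's quasi-likelihood test. Between the tumor arms it was 0.63 (-1.24 to 2.502). Without KPC 5 the difference of KPC from no tumor was 1.45 (edgeR FDR 0.648), and that from KPC IL6KO was -0.59. DESeq2 called Pdk4 higher in KPC than in no tumor fat (log2 difference 2.64, adjusted p 0.0434).

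Pdp2 was at 26.7, 20.1, 20.1 and 14.3 CPM in no tumor, 10.3, 11.3, 12.4 and 12.9 CPM in KPC and 13.4, 22.9, 15.2 and 12.5 CPM in KPC IL6KO fat. The KPC and no tumor ranges did not overlap. The log2 difference was -0.79 (95% interval -1.34 to -0.25, unadjusted p 0.00812) with an edgeR FDR of 0.280, and DESeq2 called it lower (-0.79, adjusted p 0.0283). This direction was opposite to that of Pdp2 in muscle.

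For the other 8 genes the log2 difference of KPC from no tumor fat lay between -0.55 (Pdhb) and 0.18 (Pdk1), with unadjusted p of 0.0563 (Dlat) and above in edgeR's quasi-likelihood test. Dlat was at 62.03 to 120.5 CPM in no tumor, 50.9 to 70.0 CPM in KPC and 55.2 to 89.0 CPM in KPC IL6KO fat. Pdp1 was at 12.3 to 26.6, 17.5 to 26.5 and 15.3 to 27.6 CPM. The intervals for all 8 included a change of 1.5-fold in at least 1 direction, so the fat data could not resolve changes of that size. The median of all genes was itself at -0.10 in KPC against no tumor fat. No gene of the 4 pathway lists was called in fat.

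**Figure D5:**
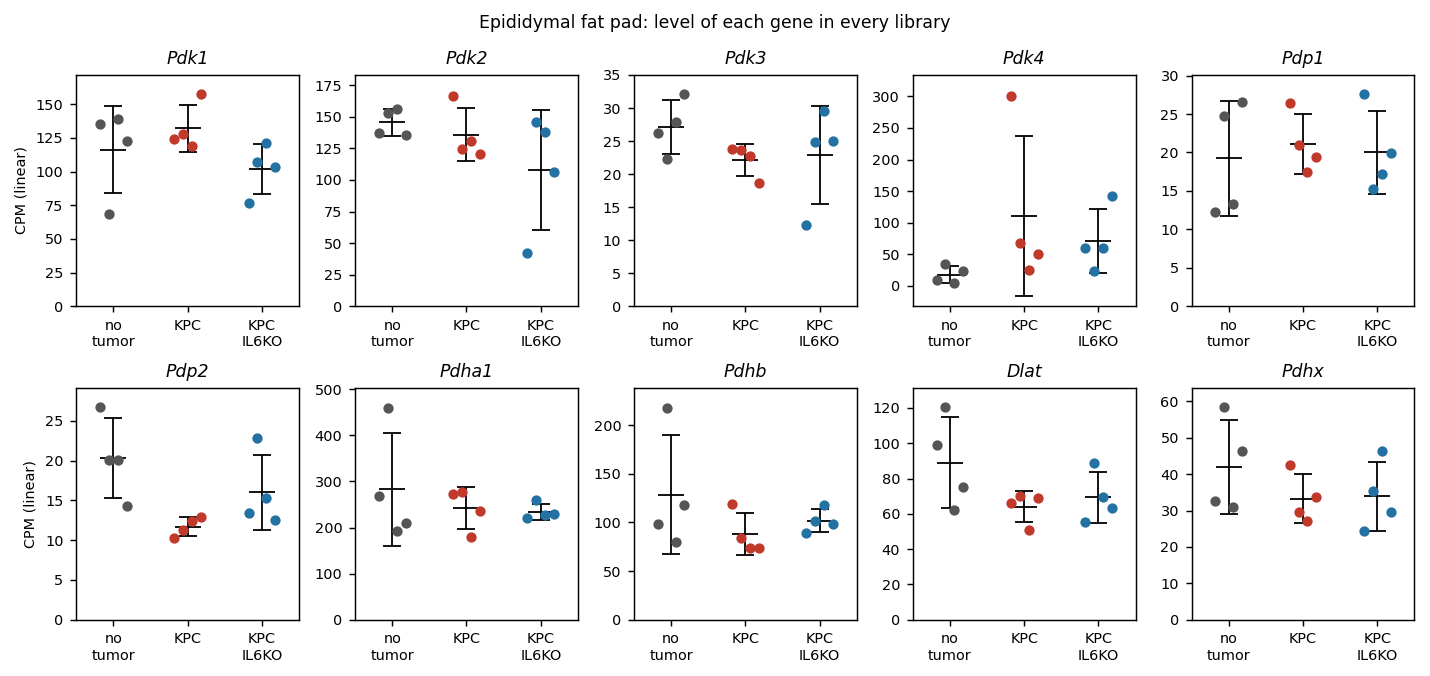
Level of the 10 genes in each epididymal fat library (CPM on a linear axis), with 1 panel per gene, 1 point per mouse and a bar for the mean and SD of 4 mice a group. KPC 5 lies at 299.9 CPM for Pdk4 while the other KPC libraries lie between 24.4 and 68.004 CPM, and the Pdp2 points of KPC lie below those of no tumor.

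The fat libraries differed in the tissue they held, and these values stand beside the Pdk4 levels. In KPC against no tumor fat, 0 of 6 adipocyte markers (median log2 difference -1.74), 0 of 6 muscle fibre markers (-5.22) and 1 of 6 epididymis markers (-0.51) had a positive difference, as did 5 of 5 macrophage markers (1.81) and 4 of 4 neutrophil markers in the table (4.06), and none was called. The library with the most Pdk4 of its group was no tumor 6, KPC 5 and KPC IL6KO 8. Neutrophil markers summed to 6.02, 42.2 and 58.6 CPM and macrophage markers to 382.5, 867.9 and 1016 CPM in these 3 libraries, each the highest of its group. Adipocyte markers summed to 18079, 8479 and 5103 CPM, the highest of the group in the first 2. Muscle fibre markers summed to 106.3, 2.16 and 2238 CPM and epididymis markers to 13492, 35460 and 10129 CPM. Cxcr2 was at 0 in at least 1 no tumor library. With the log2 marker sum of epididymis, adipocytes or muscle fibres added to the fit as a covariate, none of the 10 genes was called in fat. Over these and the other alternative fits the log2 difference of Pdk4 between KPC and no tumor fat was 2.43 to 4.15. The genes most like Pdk4 across the 12 fat libraries were Slc10a6 (0.387), Olfr1033, Csf2rb, Ifi204 and Clec10a, against a median of 1.66 over 13916 genes. Those most like Pdk2 were Zrsr1, Nubpl, Gstk1, Sat2 and Gm6297.

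Whether the tumor response differed between the tissues was tested as an interaction in 1 fit of all 23 libraries. For KPC against no tumor the response in muscle minus that in fat passed an FDR of 0.05 for 4 of the 10 genes, against 38.6% of 12599 genes, again near the share of genes at large. Pdp1 had the largest difference, at -2.51 (SE 0.56, edgeR FDR 0.00166), with a fall in muscle and levels that overlapped in fat. Pdp2 differed by 1.58 (SE 0.35, edgeR FDR 0.00169), higher in muscle of KPC mice and at lower levels in their fat. Dlat differed by -0.94 (SE 0.27, edgeR FDR 0.00907) and Pdk1 by -0.88 (SE 0.30, edgeR FDR 0.0257). The call for Pdk1 was lost without no tumor 1 of muscle (edgeR FDR 0.0603), KPC 3 of muscle (0.0502) or KPC 8 of fat (0.0531). For Pdk4 the difference of 0.80 (SE 1.04, edgeR FDR 0.568) was smaller than its error, so a difference between the tissues was not shown. This value moved with single fat libraries, to 0.26 without no tumor 6, 0.47 without KPC 7 and 2.02 without KPC 5 (edgeR FDR 0.0944). For KPC IL6KO against no tumor, none of the 10 genes and 0% of all genes passed.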

How the data were processed

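RNA sequencing of quadriceps and epididymal fat gave 23 libraries. Within a tissue each library came from 1 mouse, and the labels do not say whether any mouse gave both tissues. The authors checked reads of 75 bases per mate with FastQC, aligned them to mm10 with STAR, and deposited raw counts of uniquely mapped reads per gene, 1 table per tissue, which are the unit used here. The submitters' processing notes name featureCounts (Subread) 1.5.1 and edgeR 3.12.1. The smallest and largest library totals of each tissue are given in the report.

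Groups came from the sample labels. Per tissue, edgeR 4.0.16 (R 4.3.3, limma 3.58.1) fitted the 3 groups in 1 model with TMM scaling, filterByExpr and the quasi-likelihood test, with Benjamini-Hochberg adjustment over all genes; this test was chosen because the study does not name the one it used. P-values weigh a group difference against the spread between mice of a group. Each tumor arm was 1 cell clone, so no p-value takes in the spread between clones. Genes were called at an FDR of at most 0.05 and a fold change of at least 1.5, and intervals are at 95%. Per kb values divide CPM by merged exon length (GENCODE M21, GRCm38). The interaction was fitted on the genes in both tables, with the libraries of both tissues taken as independent. The method was also run on simulated counts, drawn for each gene on its own and so without the mixed tissue of the fat libraries. No result given here rests on that run. Figures were drawn with matplotlib 3.10.9 in Python 3.11.15.

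The 10 genes and the lists were chosen with earlier results of these data known. All 10 genes are named. Of each pathway list the text names the gene with the highest mean and those called, as counts where over 4 were called. The called factors known to act on Pdk genes are given although the rule did not ask for them. So are the levels of Foxo1, Cebpb, Ppara, Pparg and Ppard in KPC IL6KO muscle, and the values of Ppara for KPC against no tumor muscle. For Pdk4 and Pdk2 in each tissue the text names the 5 most alike, among genes whose average log2 CPM reached 1. Alternatives were DESeq2 1.42.0, the likelihood ratio test, RLE scaling, no filter, at least 10 counts in every library, 2 groups per fit, a replicate block, marker covariates in fat, and leaving out each library. One no tumor muscle sample that the authors excluded was not analysed here.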

Additional observations from a re-analysis of the deposited data

Results flagged for a closer look

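Single libraries stood apart from the other 3 of their group for 3 of the 50 combinations of gene and group with 4 libraries, by a gap test that flags about 1 in 20 by chance. Pdhb in muscle was at 244 CPM in KPC IL6KO 2, with the next library at 216 CPM. Pdk3 in muscle was at 0.514 CPM in KPC IL6KO 4 (a count of 30), with the next at 0.571 CPM (a count of 29). At counts this low, such a gap is within the noise of counting reads. Pdk4 in fat was at 299.9 CPM in KPC 5, with the next at 68.004 CPM, and that library carried the KPC group's highest adipocyte, macrophage and neutrophil marker sums, at 8479, 867.9 and 42.2 CPM. With the adipocyte sum as a covariate the log2 difference of Pdk4 between KPC and no tumor fat was 2.93 (edgeR FDR 0.0732). The part of the macrophage and neutrophil markers was not tested.

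The response to KPC tumors differed between muscle and fat in the interaction test for 4 genes. On the log2 scale, muscle minus fat, the difference was -0.88 for Pdk1, -2.51 for Pdp1, 1.58 for Pdp2 and -0.94 for Dlat. Muscle and fat were sequenced separately, and the labels do not say whether any mouse gave both tissues.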

How the results depend on the processing

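The counts of members called in muscle, 2 up and 3 down in KPC against no tumor, moved by no more than 1 gene under every alternative. Against KPC IL6KO, the count called up was 1 to 2 when each library was left out, with 1 without KPC 4. In fat, DESeq2 called 1 gene up and 1 down in KPC against no tumor where the quasi-likelihood test called 0. In fat no gene was called under any other alternative, including the adipocyte and muscle fibre covariates, which were chosen after seeing the data. With a replicate block, 2 genes were called up and 3 down in both muscle comparisons with KPC, 0 in fat, and 4 in the interaction for KPC, as without it. Whether libraries with the same number are paired could not be decided, as correlations for same and different numbers overlapped widely. For the same number, the correlation of their deviations was over 0.1 in 2 of 10 muscle pairs (-0.155 to 0.265). In fat it was over 0.1 in 7 of 12 such pairs (-0.539 to 0.650). For different numbers it was over 0.1 in 8 of 30 muscle pairs (-0.244 to 0.273) and 14 of 36 fat pairs (-0.647 to 0.621). Medians for same and different numbers were 0.058 and -0.031 in muscle, and 0.173 and -0.126 in fat.

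The differences that changed sign were uncalled, and the causes were not tested. With the muscle fibre covariate, KPC against KPC IL6KO in fat was 0.047 for Dlat, 0.51 for Pdhb, 0.60 for Pdhx and 0.32 for Pdk3, and KPC IL6KO against no tumor was -0.23 for Pdp1 and 0.011 for Pdp2. Pdhx between the tumor arms was 0.12 with the adipocyte covariate. With the epididymis covariate, KPC IL6KO against no tumor was 0.0088 for Pdk1 and -0.24 for Pdp1. Pdk3 between the tumor arms in muscle was -0.016 with at least 10 counts, -0.020 with 2 groups in the fit and -0.085 with the replicate block. Leaving out each library gave, between the tumor arms in muscle, -0.028 to 0.16 for Pdk2 and -0.37 to 0.20 for Pdk3. For KPC against no tumor in fat it gave -0.033 to 0.33 for Pdp1, -0.00016 to 0.28 for Pdk1 and -0.37 to 0.11 for Pdha1. For KPC IL6KO against no tumor in fat it gave -0.14 to 0.25 for Pdp1, -0.42 to 0.065 for Pdha1 and -0.50 to 0.046 for Pdhb. Between the tumor arms in fat it gave -0.59 to 1.22 for Pdk4, -0.056 to 0.27 for Pdp1, -0.025 to 0.17 for Pdha1, -0.17 to 0.19 for Pdhx, -0.25 to 0.14 for Pdk3 and -0.21 to 0.032 for Dlat. In the interaction it gave -0.17 to 0.39 for Pdhb with KPC, and -0.086 to 0.44 for Pdhb and -0.39 to 0.032 for Pdp1 with KPC IL6KO.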

Other observations

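Among the 4 KPC muscle libraries, KPC 3 was at the low end for Pdk1 (26.95 CPM), Pdp1 (3.19 CPM) and Pdha1 (400.5 CPM). It was also at the low end for Pdp2 (5.12 CPM) and Pdk3 (0.327 CPM). KPC 3 was at the high end for Pdk2 (822.7 CPM), Pdhb (229.5 CPM) and Pdhx (127.6 CPM). Its Pdk4 level of 5015 CPM lay between those of the others, and its neutrophil marker sum of 20.3 CPM was the highest of the muscle libraries. In fat, KPC IL6KO 5 had the lowest Pdk2 (41.8 CPM) and Pdk3 (12.2 CPM) of all 12 libraries, and also the lowest epididymis marker sum, at 738.1 CPM.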
